A study of Drosophila melanogaster with 4 samples.

Results

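The transcripts described here are those whose signal was higher in flies of both sexes after prenatal hyperbaric normoxia. Members were the array probes named by a FlyBase transcript identifier (FBtr), well above background on all 4 arrays, whose ratio of HN over control signal was above 1.5 in females and above 1.5 in males. Of 32162 non-control probes on the array, 21498 carried an FBtr identifier, 16232 of those passed the background filter, and 126 were members. These 126 probes belonged to 105 transcripts. The members were chosen by the HN over control ratios themselves, so these ratios are given as a description, with no test.

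RNA came from whole bodies of 10-day-old w1118 flies, a white-eyed laboratory strain otherwise taken as wild type. HN females and HN males had been kept at 2 atmospheres absolute under normoxic conditions from the fertilized egg to eclosion and then at ordinary pressure. Control females and control males had not been exposed to the raised pressure. All 4 groups shared the strain, the age and the medium. RNA from flies of 1 sex and treatment was pooled, and each group had 1 array, so no ratio has a replicate check.

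Hyperbaric normoxia raises the ambient pressure while the supply of oxygen is kept near normal. In a whole-fly pool the signal of a transcript sums over all tissues, and the sexes differ mainly through the germ line and the reproductive tract. An FBtr identifier names a transcript model and not a gene. A gene can have several such models, and the array can hold several probes for a model. The array files pair no FBtr identifier with a gene symbol, and 0 of the 105 transcripts had an entry in the RefSeq gene table of the Release 6 assembly. The members are therefore given by identifier, with no role and no place in the genome, and of the 306 genes on the 9 lists drawn up for this tissue, chitin metabolism and cuticle proteins among them, none could be matched to a member. A higher signal from more cells of a type and from more RNA per cell cannot be told apart in such pools.

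All 4 arrays lay on 1 slide. HN females, control females and HN males were read in one scan and control males in another, and treatment and scan of the male arrays cannot be told apart, whereas the female ratio was formed within the first scan. The median signal was 180 in HN females, 192 in control females, 453 in HN males and 356 in control males, and every signal below is given as a multiple of its array's median. On this scale levels of females and males can be set side by side, but a scaling by each array's 75th percentile would lower every log2 ratio of female over male signal on the control arrays by 1.61, so that smaller differences between the sexes have no settled direction. The HN over control ratios within a sex moved less with the scaling, and 152 probes met the rule with the 75th percentile. Between 67.8% and 79.1% of probes per array were well above background, and no spot was saturated. Of 36 marker genes for tissues and sex, 7 could be named on the array. The male dosage compensation RNA roX1 was at 0.287, 0.306, 0.399 and 0.123 on its 4 probes in HN females, against 1.66, 1.64, 2.96 and 0.272 in control females, and at 8.96 to 85.2 in HN males, against 8.91 to 89.6 in control males. The vitelline membrane gene Vm34Ca was well above background in both female groups and in neither male group. Dup99B, a male reproductive gene, was at 0.110 in HN females, against 0.0221 and not well above background in control females. The testis gene soti was not well above background on any array, and roX2 was so in males of both groups alone. The gut proteases alphaTry and Jon65Aiii were well above background on all 4 arrays. The higher roX1 signal lay in the control female pool, over which every female ratio is formed. For roX2 control females were at 0.0313 and 0.0266, against 0.0285 and 0.0258 in HN females, none well above background. Dup99B, lower in control females than in HN females, was at 18.5 in HN males and 18.7 in control males. The male markers thus differed, and the purity of the control female pool could not be settled from them. Whether that pool held some male material, and whether this had any part in the members' ratios, was not tested.

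Over the 16232 probes tested, the HN over control ratio passed 1.5 in 275 probes in females (1.69%) and in 383 probes in males (2.36%), and lay below the inverse limit in 1.33% of probes in females and 1.24% in males. The 126 members made up 0.776% of the probes tested. A ratio below the inverse limit in both sexes was found for 33 probes, or 0.203%. The members' median log2 ratio was 1.04 in females and 1.01 in males, while over all probes tested it was -0.06 in females and -0.06 in males, with 5% of probes above 0.35 in females and above 0.39 in males. By the smaller of the ratios in the 2 sexes, 73 members lay between 1.5-fold and 2-fold, 34 between 2-fold and 4-fold, 16 between 4-fold and 8-fold, and 3 above 8-fold. The 73 members of the lowest range were thus under 2-fold in at least one sex, and the other members were above 2-fold in both.

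**Figure D1:**
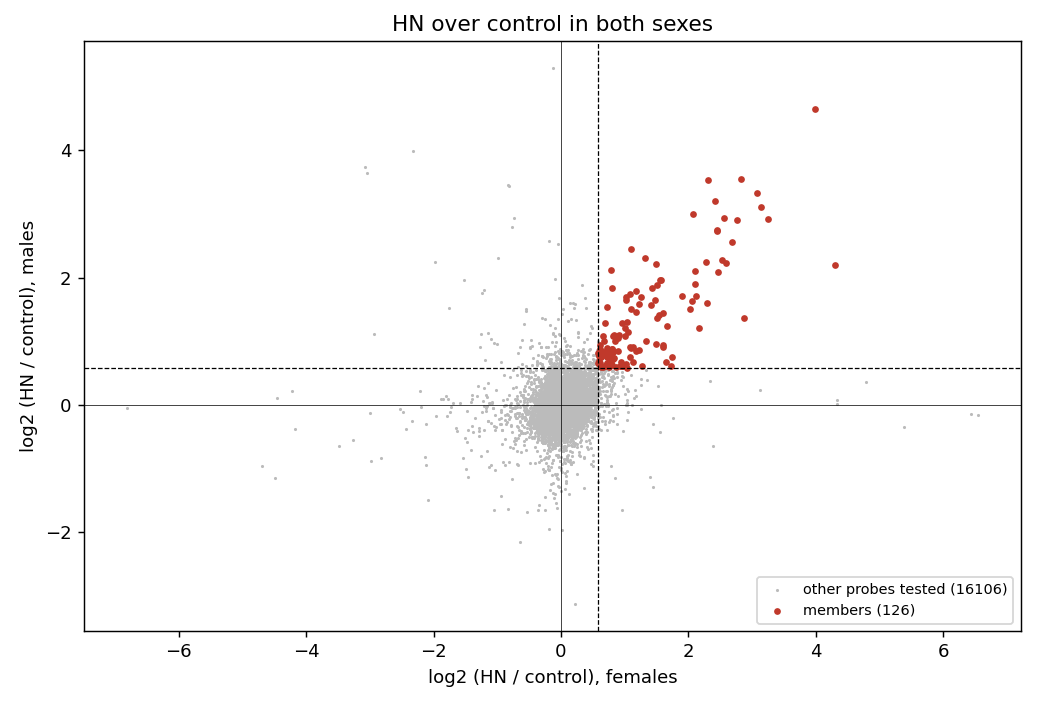
Log2 ratio of HN over control signal in females (horizontal axis) and in males (vertical axis) for the 16232 probes tested, with 1 array per group. Red points are the 126 members, grey points the other probes, and the dashed lines mark the limit of 1.5-fold, so that all red points lie in the upper right field by the rule.

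The transcript with the highest smaller ratio of the 2 sexes was FBtr0077021. Its signal was 129 in HN females, against 8.14 in control females, and 38.5 in HN males, against 1.53 in control males. It was 15.9-fold higher in HN females and 25.2-fold higher in HN males, with log2 ratios of 3.99 ± 0.20 and 4.65 ± 0.20 (the software's error estimate for 1 spot per array). Its level in HN males was above that in control females, so that the treatment difference exceeded the difference between the sexes for this probe.

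Transcripts FBtr0083919 and FBtr0079500 were the others beyond 8-fold in both sexes. FBtr0083919 had a signal of 24.9 in HN females, against 2.81 in control females, and of 50.9 in HN males, against 5.92 in control males, which were 8.85-fold and 8.60-fold differences. FBtr0079500 was at 4.62 in HN females, against 0.549 in control females, and at 12.6 in HN males, against 1.26 in control males (8.42-fold and 10.0-fold). In control flies FBtr0077021 was higher in females under either scaling, with a log2 ratio of female over male of 2.41, whereas for FBtr0083919 and FBtr0079500 that ratio was -1.07 and -1.20.

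FBtr0079500 belonged to a run of 3 members with consecutive identifiers. FBtr0079501 was at 118 in HN females, against 12.4 in control females, and at 198 in HN males, against 26.2 in control males. FBtr0079499 was at 22.9 in HN females, against 3.78 in control females, and at 59.1 in HN males, against 12.6 in control males. The 3 transcripts had log2 ratios of 2.60 to 3.25 in females and of 2.23 to 3.33 in males, the larger ratio being in females for FBtr0079501 and FBtr0079499 and in males for FBtr0079500. A second such group was FBtr0080557 and FBtr0080558. FBtr0080557 was at 14.3 in HN females, against 2.11 in control females, and at 22.1 in HN males, against 2.95 in control males. FBtr0080558 was read by 3 member probes, which gave log2 ratios of 2.56, 2.46 and 2.45 in females and of 2.93, 2.73 and 2.75 in males. Each of these 3 probes was chosen by the rule, and all read the same RNA. Another probe of FBtr0080558 did not pass the background filter, with 0.0811 in HN females, against 0.0262 in control females, and 0.306 in HN males, against 0.0231 in control males. Its log2 ratios were 1.63 in females and 3.73 in males. In all, 11 of the 105 transcripts fell in 5 runs of consecutive identifiers, the others being FBtr0075470 with FBtr0075471, FBtr0086972 with FBtr0086973, and FBtr0300928 with FBtr0300929. The members of these other runs had ratios from 1.53-fold in males for FBtr0086973 to 7.36-fold in females for FBtr0075470. These runs were singled out after their values had been seen, and whether their probes share sequence could not be read from the files. Neighbouring identifiers were common, since 73 of the 105 transcripts had one among the 12122 transcripts tested. Runs were not counted over all transcripts tested, so no clustering of the members is read from these.

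The other 4 of the 12 probes with the highest smaller ratio follow. FBtr0290280 was at 10.8 in HN females, against 1.52 in control females, and at 20.4 in HN males, against 1.74 in control males. FBtr0072869 was at 4.89 in HN females, against 0.914 in control females, and at 7.24 in HN males, against 0.788 in control males. Both had a larger ratio in males than in females. FBtr0088190 was at 8.85 in HN females, against 1.37 in control females, and at 2.66 in HN males, against 0.449 in control males, with nearly the same ratio in both sexes (6.44-fold and 5.93-fold). FBtr0306800 was at 3.24 in HN females, against 0.653 in control females, and at 1.34 in HN males, against 0.116 in control males. The control male level of FBtr0306800 was near background, its male log2 ratio carried an error of 0.28, and a second probe of the transcript gave log2 ratios of 0.23 in females and 0.79 in males.

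Another 7 probes, at ranks 13 to 19, were more than 4-fold higher in both sexes. The ones not described elsewhere were FBtr0078191, FBtr0085710 and FBtr0087920, named here after their values had been seen. FBtr0078191 was at 3.65 in HN females, against 0.635 in control females, and at 1.36 in HN males, against 0.281 in control males. FBtr0085710 was at 2.61 in HN females, against 0.539 in control females, and at 4.15 in HN males, against 0.877 in control males. FBtr0087920 was at 58.8 in HN females, against 10.6 in control females, and at 38.3 in HN males, against 9.03 in control males. Their ratios lay close together in females and males, at 5.75-fold and 4.85-fold for FBtr0078191, 4.84-fold and 4.73-fold for FBtr0085710, and 5.55-fold and 4.24-fold for FBtr0087920.

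**Figure D2:**
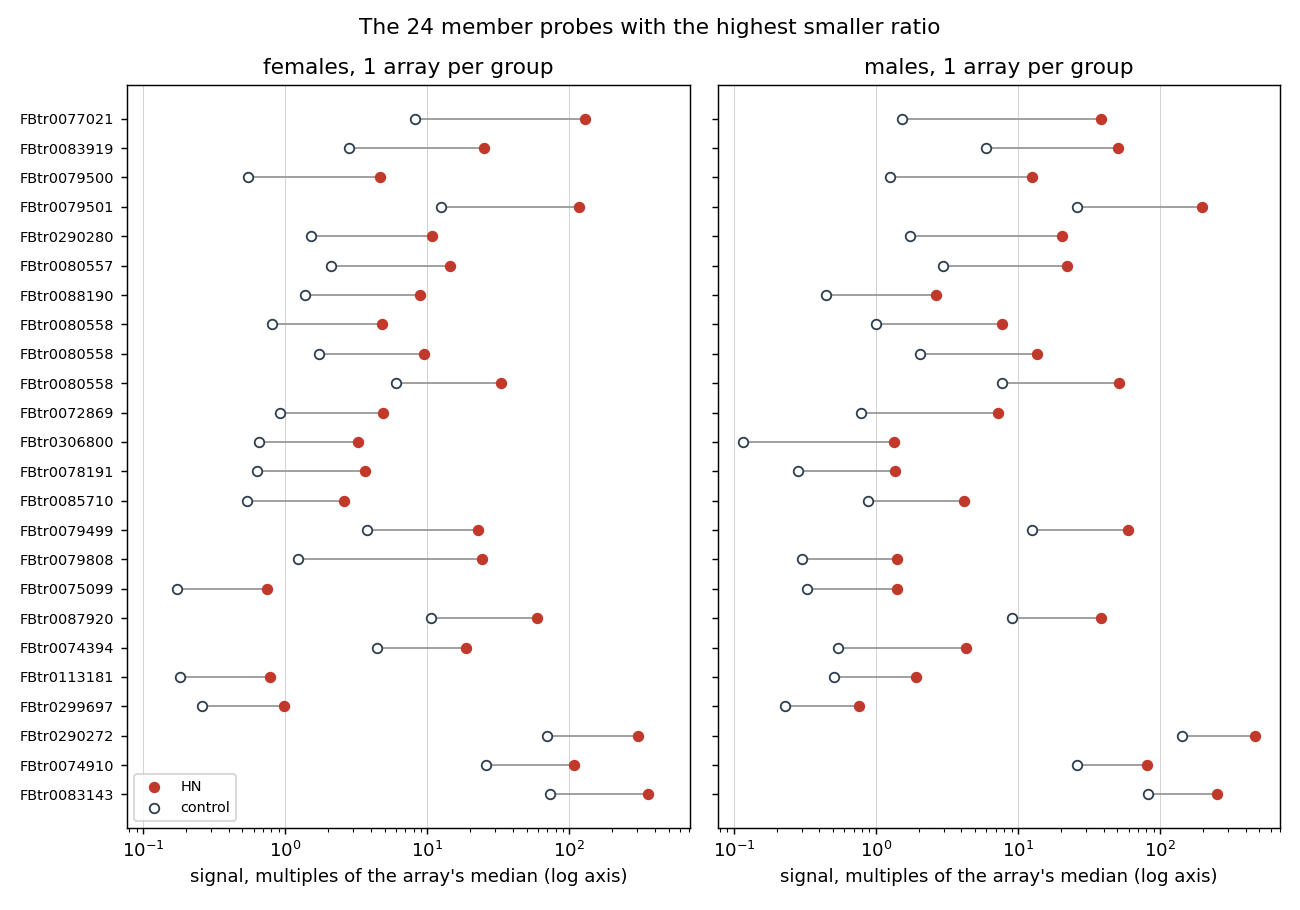
Signal on each of the 4 arrays, as multiples of the array's median on a log axis, for the 24 member probes with the highest smaller ratio (females left, males right). Filled points are HN and open points control, 1 array each; every pair has the HN point to the right, by the rule, and FBtr0080558 appears on 3 lines because 3 of its probes are members.

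The members with the highest mean signal over the 4 arrays were FBtr0085196, FBtr0290272 and FBtr0083935. FBtr0085196 was at 569 in HN females, against 298 in control females, and at 409 in HN males, against 266 in control males. FBtr0290272 was at 303 in HN females, against 69.6 in control females, and at 465 in HN males, against 143 in control males. FBtr0083935 was at 265 in HN females, against 152 in control females, and at 228 in HN males, against 134 in control males. Of these, FBtr0290272 had log2 ratios of 2.12 in females and 1.71 in males, and the other two stayed under 1 in both sexes. At the dim end, FBtr0081691 was at 0.185 in HN females, against 0.0742 in control females, and at 0.458 in HN males, against 0.0919 in control males. The 2 spots of its probe gave female log2 ratios of 0.74 and 2.56, the widest disagreement between repeat spots of any member.

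Repeat spots gave a direct reading of the error between spots of an array. Labelling, hybridization and scan are shared by the spots of an array, so their error is not part of it. The probes of 54 members were spotted 2 times on each array and those of the other 72 once. For 47 of the 54, every spot taken alone gave a ratio above 1.5 in both sexes. The rule used the mean of these same spots, so this count follows in large part from the choice of members. Taken by sex, every spot was above 1.5 for 51 of the 54 in females and 50 in males. Over the 6928 tested probes with repeat spots, this held for 94 in females and 122 in males. Between repeat spots, log2 ratios had a pooled standard deviation of 0.22 in females and 0.11 in males for these 54 members, against 0.17 and 0.12 for the 6928 tested probes with repeat spots, and the female value for the members rests in large part on FBtr0081691. The error of a ratio as estimated by the scanner software had a median of 0.20 on the log2 scale in females and in males. Of the 126 members, 76 stayed above the limit in both sexes when this error was taken off their ratios, and 50 did not. The members lay over the whole array. Cut into 4 fields, it held 34, 44, 23 and 25 of them (27.0%, 34.9%, 18.3% and 19.8%), where the fields held 30.2%, 30.6%, 19.7% and 19.5% of the probes tested. None of these errors holds the difference between pools of flies.

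Near the limit the choice of members was fine-grained. The members with the lowest smaller ratio were FBtr0075817 (log2 ratios 0.59 in females and 0.67 in males), FBtr0299857 (0.59 and 0.81) and FBtr0080640 (1.03 and 0.59). Just outside were FBtr0073203, FBtr0113464 and FBtr0071745, each with a log2 ratio of 0.58 in females and a larger one in males. In all, 34 members had a smaller ratio under 1.6-fold, and 49 other probes had one between 1.4-fold and the limit.

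Several transcripts were read by more than 1 probe, so that their ratios could be set beside each other. These probes were hybridized to the same RNA and are no independent support. Of the 105 transcripts, 67 had 1 probe on the array and 38 had more, and for 17 transcripts 2 or more probes were members, 38 probes in all. FBtr0299697 had 3 member probes, with log2 ratios of 1.90, 1.58 and 1.55 in females and of 1.72, 1.97 and 1.97 in males. The HN male spot of the probe with 1.58 in females carried an outlier mark, so that its male ratio rests on a doubtful spot, and the other 2 probes are free of such marks. FBtr0302334 was 2.83-fold and 2.80-fold higher in HN females and 3.69-fold and 3.15-fold higher in HN males on 2 probes. FBtr0075369 had log2 ratios of 1.51 and 1.49 in females and of 1.37 and 0.96 in males. One probe of FBtr0302334 was at 0.558 in HN females, against 0.197 in control females, and the other at 7.97 in HN females, against 2.85 in control females. Another probe of FBtr0302334 did not pass the background filter, with 0.0638 in HN females, against 0.0390 in control females, and 0.120 in HN males, against 0.0934 in control males. The member probes of FBtr0302334 and of FBtr0075369 thus gave like ratios in females.

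Other transcripts had probes that disagreed. FBtr0075099 had log2 ratios of 2.11 and 1.02 in females and of 2.11 and 1.70 in males, and both its probes were dim, at 0.174 and 0.152 in control females and 0.327 and 0.135 in control males. FBtr0336648 had 3 member probes with 1.42, 1.09 and 0.82 in females and 1.57, 0.75 and 0.72 in males, and another probe with 0.81 and 0.37 that was no member. FBtr0336652, singled out after its values had been seen, had 7 probes, of which 1 was a member (3.03-fold in females, 1.93-fold in males), and the 5 others that passed the background filter gave log2 ratios of 0.09 to 0.44 in females and of 0.07 to 0.46 in males. Of the 30 transcripts with at least 2 probes tested, all tested probes were members in 15 and only some were in the other 15. The 22 tested probes of member transcripts that were no members had a median log2 ratio of 0.39 in females and 0.38 in males. Over all probes tested it was -0.06 in females and -0.06 in males. Of the 22, 20 were above 0 in both sexes, a share that was not counted over all probes tested. A further 11 probes did not pass the background filter, 4 of them with both ratios above 1.5. Of all 5266 FBtr probes that did not pass it, 114 had both ratios above 1.5.

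**Figure D3:**
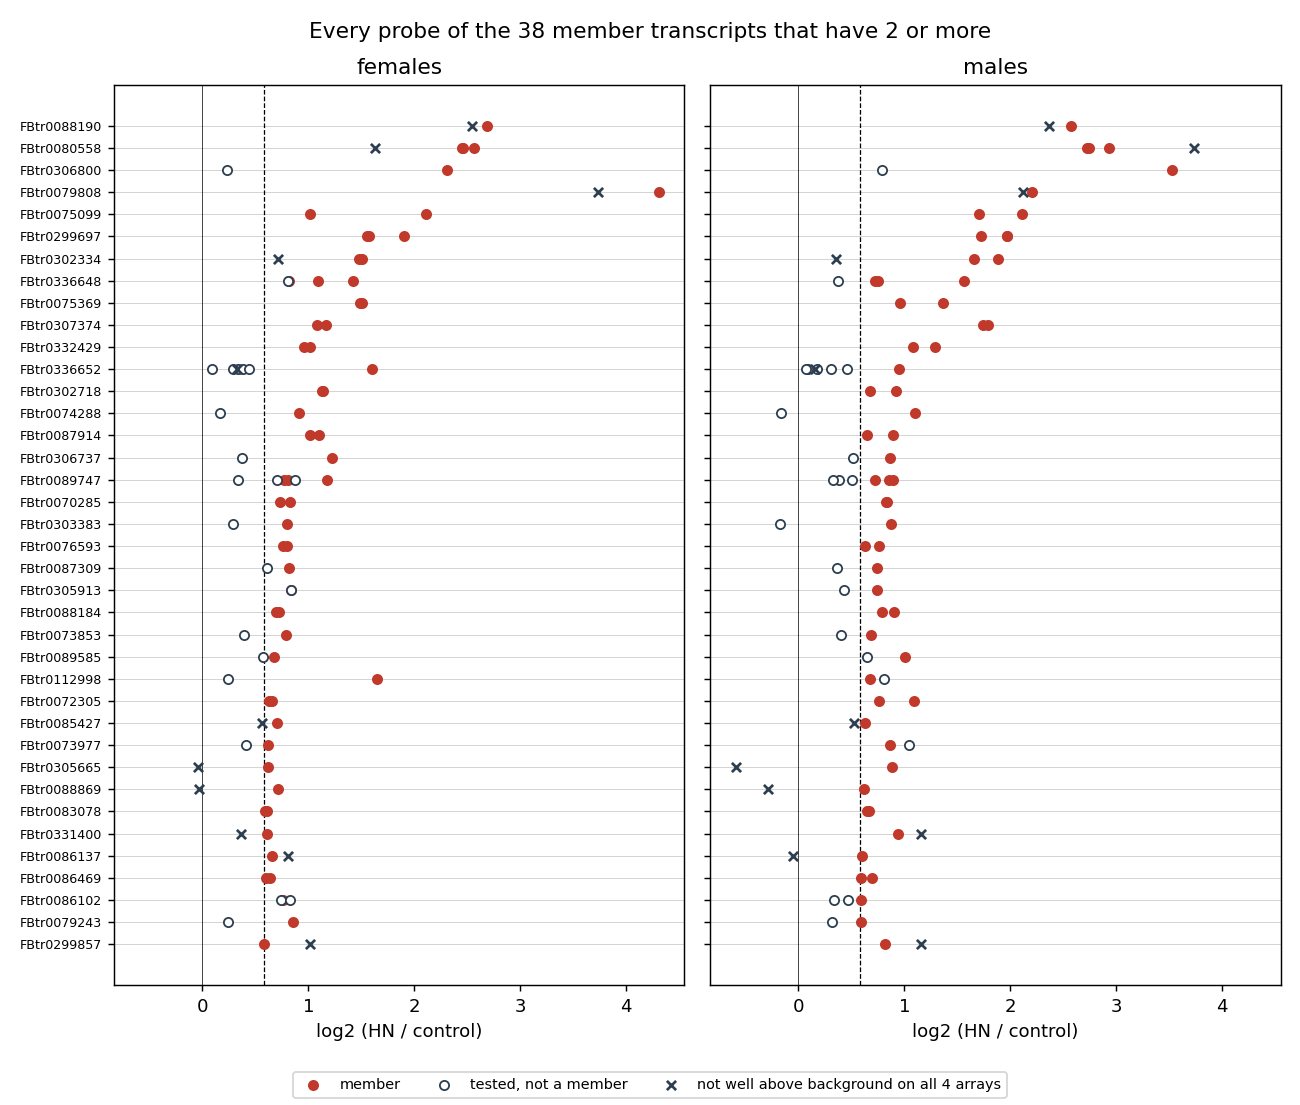
Log2 ratio of HN over control in females (left) and males (right) for every probe of the 38 member transcripts that have more than 1 probe, ordered by the highest smaller ratio among their members. Red points are members, open points tested probes that are no members, crosses probes not well above background on all 4 arrays. The dashed line marks 1.5-fold. FBtr0080558 and FBtr0299697 show member probes close together, FBtr0336652 1 probe apart from the rest.

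The rule made no use of the difference between females and males within a treatment, though the arrays are the same. Over all probes tested, the median log2 ratio of female over male signal was 1.61 on the HN arrays and 1.66 on the control arrays, whereas for the members it was -0.01 on the HN arrays and 0.04 on the control arrays. The members thus lay 1.63 (HN) and 1.62 (control) below the rest on the log2 scale. The zero of these ratios moves with the scaling between sexes: with each array's 75th percentile the control medians became -1.56 for the members and 0.06 for all probes tested, with the same distance of -1.62. With the array median as used here, 17 of the 126 members (13.5%) were more than 2-fold higher in control females, where 62.1% of all probes tested were, and 14 (11.1%) were more than 2-fold higher in control males, where 5.37% of all were. On the HN arrays, both read in 1 scan, 15 members were more than 2-fold higher in females (61.1% of all probes tested) and 9 in males (4.84%). These shares change with the scaling, whereas the distance between the medians is fixed under any single factor per array. It did move under quantile normalization, to -1.06 on the control arrays.

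The distance was seen at every brightness and was smallest among dim probes. When the probes were put in 4 groups of equal size by control signal, the dimmest held 69 members, or 54.8% of them. Their median log2 ratio of female over male was 0.19, against 0.52 for the other probes of that group. In the 3 brighter groups, from dim to bright, it was -0.12, -0.25 and -0.05 for the 21, 14 and 22 members, against 1.56, 2.46 and 1.91 for the rest. Over all probes past 1.5-fold in HN females alone (149 probes) the control median was -0.51, and over those past it in HN males alone (257 probes) it was 1.45. It was 0.71 over the 33 probes lower in both sexes. These groups were formed from ratios that share the control arrays with the female over male ratio, so no test of the difference was made.

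**Figure D4:**
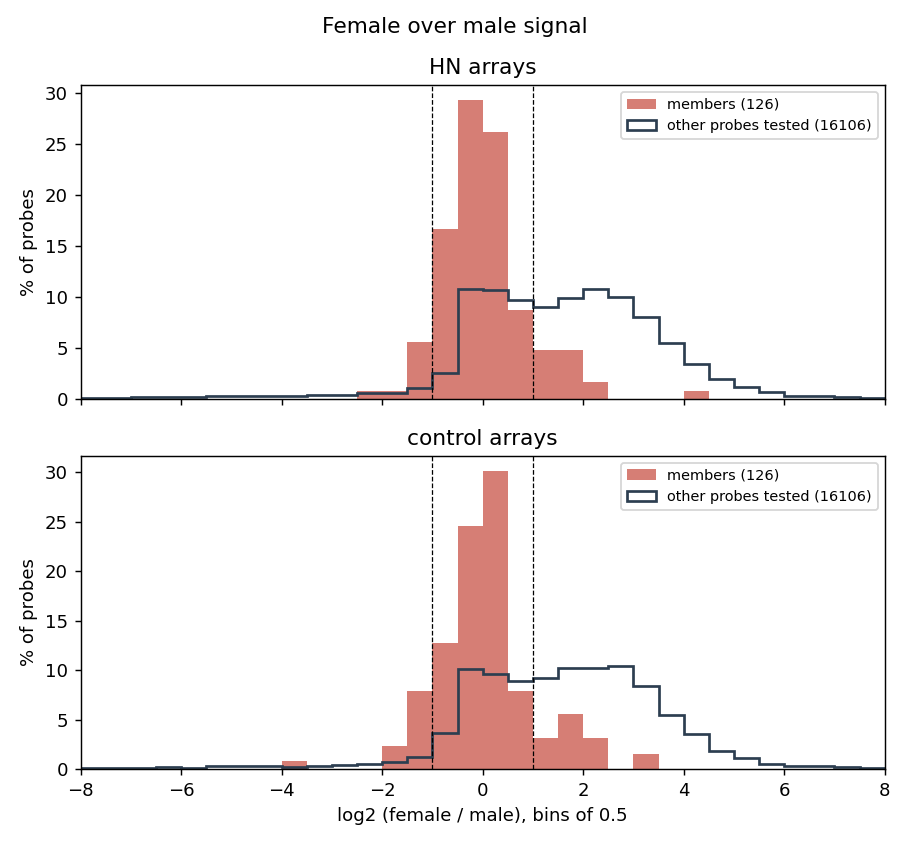
Share of probes (vertical axis, percent) by log2 ratio of female over male signal in bins of 0.5, on the HN arrays (top) and the control arrays (bottom), after scaling each array to its median. Filled bars are the 126 members and the outline the other probes tested. The members gather around 0 and the others spread toward the female side. The distance of about 1.6 between the medians does not depend on which percentile scales the arrays. It is not one between probes of like brightness, and it was smallest among dim probes.

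A few members had a strong difference between the sexes. FBtr0082625 was at 14.4 in HN females and 8.25 in control females, and at 2.76 in HN males and 0.772 in control males. FBtr0074394 was at 18.7 in HN females and 4.44 in control females, and at 4.31 in HN males and 0.538 in control males. These had the highest female over male ratios among the members on the control arrays, 3.42 and 3.04 on the log2 scale. On the male side, FBtr0075470 was at 5.88 in HN females and 0.799 in control females, and at 31.7 in HN males and 12.2 in control males. FBtr0084106 was at 0.368 in HN females and 0.109 in control females, and at 0.679 in HN males and 0.401 in control males. On the control arrays their log2 ratios of female over male were -3.94 and -1.87.

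The HN ratio of most members differed by less than 2-fold between females and males, and a member had to pass the same limit in both. Over all probes tested, 5% of log2 ratios lay under -0.28 in females and under -0.37 in males, and 5% above 0.35 and 0.39. A difference under 2-fold is thus not particular to the members. The ratio was larger in females for 60 members and larger in males for 66, and for 119 of the 126 the ratios differed by less than 2-fold. The 3 members with a larger ratio in females by more than that were FBtr0079808, FBtr0075470 and FBtr0087006. FBtr0079808 was at 24.3 in HN females, against 1.23 in control females, and at 1.4 in HN males, against 0.304 in control males, so that it was 19.8-fold higher in HN females and 4.61-fold higher in HN males. A second probe of FBtr0079808, not well above background in either control group, gives only lower bounds, at least 13.3-fold higher in HN females and at least 1.42-fold higher in HN males. FBtr0075470 was 7.36-fold higher in HN females and 2.59-fold higher in HN males, and FBtr0087006, named after its values were seen, was 3.30-fold and 1.54-fold higher. On the male side were FBtr0086613, FBtr0088040, FBtr0306800 and FBtr0082625. FBtr0086613 was at 1.34 in HN females, against 0.622 in control females, and at 1.13 in HN males, against 0.207 in control males. FBtr0088040 was at 0.728 in HN females, against 0.421 in control females, and at 0.366 in HN males, against 0.0838 in control males, with its 2 male spots at log2 ratios of 1.81 and 2.58. With 1 array per group, whether the response differed between the sexes was not tested.

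The background filter left out transcripts that were near background without HN. Of the 5266 FBtr probes that did not pass it, 114 had both ratios above 1.5 and are not counted among the members. Of the 21498 FBtr probes, 75 were well above background in HN females and HN males and in neither control group, while 3 showed the opposite. The arrays themselves differed in this. Over all non-control probes, 79.1% were well above background in HN males and 72.8% in control males, and 68.5% in HN females and 67.8% in control females. Whether the 75 and the 3 differ beyond these shares was not tested. In males 961 FBtr probes were well above background in HN flies alone, against 52 in control flies alone, and in females, where both arrays were read in one scan, the numbers were 403 and 275. For the 75 probes the HN signal was divided by the control signal. Where this lay under the control array's lowest signal well above background, that lowest signal was used, which gives a lower bound. The ratio formed in this way passed 1.5 in both sexes for 7 of them. One, picked as an example after its values were seen, was FBtr0301517. It was at 0.208 in HN females, against 0.0835 in control females, and at 0.192 in HN males, against 0.0583 in control males. Its control signals were used as measured, so its ratios of 2.49-fold in females and 3.30-fold in males are no lower bounds. They rest on control signals that were not well above background.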

How the data were processed

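The spot intensity values that the authors deposited were read by Agilent Feature Extraction (11.5.1.1 per the file headers) from 1-colour arrays, whose design rests on the dm3 build; the background had been subtracted by the software and no scaling between arrays applied. They also deposited a table of 1 intensity per probe, and 99.0% to 99.3% of its values lay within 0.1% of the mean processed intensity. Here the spots of a probe were averaged, each array was divided by its median over non-control probes, and a probe counted as well above background where at least 50% of its spots did. All ratios are HN over control. Transcripts named in the text are those of the 12 probes with the highest smaller ratio, those with several member probes, those at the limit, the brightest, and those with the largest differences between sexes, unless said otherwise. No test was made, because the ratios chose the members and each group had 1 array, whose number limits the precision. The limit, members and lists were chosen with earlier results of these data known. Python 3.11.15, R 4.3.3 and limma 3.58.1 were used, and the rule was tested on simulated data. The study's methods set intensities under 5 to 5 and scale to the 50th percentile; the first of these, other scalings, other background corrections and other limits were tried as alternatives.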

Additional observations from a re-analysis of the deposited data

Results flagged for a closer look

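Signals above those of control flies were also seen in probes outside the members. The first group are probes named by other identifiers. Of 3542 such probes well above background on all 4 arrays, 34 (0.96%) had both ratios above 1.5. The identifier RH61147 had a pattern close to that of FBtr0077021. It was at 111 in HN females, against 6.64 in control females, and at 30.8 in HN males, against 1.24 in control males, with log2 ratios of 4.06 in females and 4.64 in males. Of all probes well above background on all 4 arrays, whatever their identifier, 4 were beyond 8-fold in both sexes, RH61147 and the members FBtr0077021, FBtr0083919 and FBtr0079500. The files do not say whether RH61147 and FBtr0077021 read the same gene.

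The second is TC247090, with a log2 ratio of 9.26 in females (614-fold) and a ratio of 1.69-fold in males. Its HN female spot carried the software's mark for uneven spots and the probe has no other spot. Without it, 33 probes of other identifiers remain.

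The third are the 114 FBtr probes that had both ratios above 1.5 without being well above background on all 4 arrays. Signals near background carry larger errors, and no test of these ratios was made.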

How the results depend on the processing

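The number of member probes, 126, stayed within 1.5 times that value under 11 of the 14 alternatives: the 75th percentile, no scaling, the median of the well measured probes (above background on every array), quantile normalization, cyclic loess, log2 averages without outlier spots, signals under 5 set to 5, normexp, the deposited table, all spots well above background, and transcripts in place of probes. Without the filter on dim probes it was 240, with 5.50% of probes over 1.5-fold in females and 4.24% in males. With a 2-fold limit it was 53, with shares of 0.635% in females and 0.764% in males, by construction. With the signal before detrending, an alternative added with the data in view, it was 246, with shares of 3.45% and 6.39%, and the members' median log2 ratio was 1.2 in females and 1.23 in males; the medians of all probes tested were then 0.10 and 0.16, and the cause was not tested. Without scaling, 11.2% of probes passed 1.5-fold in males, where the median of all probes tested was 0.29 and that of the members 1.36. Under quantile normalization the members' median in males was 1.25. Under normexp the share in females was 0.973%, the members' median in females 0.77, and 86 of the members were kept; the files give no mean signal, so normexp was run on the median signal. The members' distance from all probes tested in female over male signal was -1.06 under quantile normalization and -1.38 under normexp, against -1.62. Of the 126 members, 82, from 71 transcripts, were members under all 10 alternatives of scaling, averaging, background and source, FBtr0077021, FBtr0083919, FBtr0079500 and FBtr0079501 among them. Of 739 ratios of named members under these alternatives, 17 fell under the limit, 8 of them under normexp. They came from FBtr0075817 and FBtr0299857 at the limit and from FBtr0084106, FBtr0088040, FBtr0075099 and FBtr0302334, and no sign changed. No paired analysis was possible because the HN over control ratios chose the members and no test was made of them; a fit with sex as a block would test the values that the rule used. Within a sex there is 1 array per treatment. Among the members, dim FBtr0081691 had the highest software error, 0.42 in females.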
